A study of Mus musculus with 21 samples.

Results

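One week of regular chow (RC) after weeks of high-fat diet (HFD) was examined in the ventral hypothalamus (VH) by setting the HFD → RC libraries against the HFD NoDS libraries. The libraries were chosen by their sample names, which gave 5 HFD → RC and 5 HFD NoDS libraries of 21 in the series. All fold changes below are HFD → RC over HFD NoDS. Genes with a mean of 50 reads or more across the 21 libraries, the High Filter of the study, were tested, which left 12768 of 21654.

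All mice were male C57BL/6J (C57/BL6 in the sample labels), obtained at 12 to 14 weeks of age. HFD → RC mice ate HFD (45% of calories from fat) for 8 to 10 weeks and then RC for 7 days after the diet switch (DS), while HFD NoDS mice stayed on HFD. The groups without earlier HFD were RC NoDS (n = 5), kept on RC, and RC → HFD (n = 6), switched from RC to HFD for the same 7 days. Every mouse, controls included, was kept awake with new objects for 3 hours before tissue was taken, in the hour from ZT6, near the middle of the light phase. Each library held mRNA of VH punches (called circumventricular hypothalamus in the labels) from 2 mice, pooled equally, so a library is the replicate and no value of a single mouse can be given. Food, energy balance and body weight changed together in mice that returned to RC and cannot be told apart in this pair of groups.

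The VH holds the arcuate nucleus, where neurons that make *npy* and *agrp* drive eating and neurons that make *pomc* and *cartpt* restrain it. Leptin, a hormone released by fat, acts on both through its receptor (*lepr*), the kinase *jak2* and the transcription factor *stat3*, and *stat3* in turn induces *socs3*, which dampens the signal. In astrocytes the same factor turns on acute-phase genes when the tissue is injured or inflamed. The VH also borders the third ventricle and the meninges, so tanycytes (the cells lining the ventricle floor) and meningeal fibroblasts can be carried in a punch.

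Libraries had nearly equal depth after the re-sampling done by the authors, with 16380781 to 16390598 reads on genes. Defining genes of the VH were present in all 10 libraries, with 5182 to 11836 *pomc* reads and 426 to 1476 *agrp* reads per library. The lateral hypothalamic gene *hcrt* was highest in HFD NoDS libraries 20 (1051 reads) and 21 (823 reads), while the other 8 libraries had 87 to 437. By the study's read counts, libraries 20 and 21 also had the highest ribosomal shares of the series, and library 20 the lowest mitochondrial share. HFD → RC library 13 held 2003 *gh* and 258 *prl* reads, hormones of the pituitary, where the other 9 libraries had 0 to 4 and 0 to 10. The share of low genes (those averaging 5 to 50 reads) with a count of 0, which rises as fewer RNA molecules are sampled, was 5.68% to 31.9% in HFD → RC and 7.70% to 32.9% in HFD NoDS (exact permutation p = 0.968, two-sided). In bulk tissue, fewer cells of a type and less RNA per cell cannot be told apart.

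At the study's threshold, a Benjamini-Hochberg adjusted p under 0.15, 1 gene was called as higher after the return to RC and 8 as lower. The higher gene was *npy*, and the lower ones were *cartpt*, *stat3*, *smoc2*, *atxn7l2*, *serpina3n*, *march11*, *sbno2* and *slc12a7*. *March11* passed the read filter only through HFD NoDS, where it was high, so its direction is no result. The counts and shares of called genes include it. Of all genes tested, 0.0705% were called in either direction, 0.00783% as higher and 0.0627% as lower in HFD → RC. Calls come from edgeR's quasi-likelihood F-test with the spread estimated over all 21 libraries. Only *npy* and *cartpt* had an adjusted p under 0.05, which counts 2 genes. At an unadjusted p under 0.05 there were 1013 genes, 483 higher (3.78%) and 530 lower (4.15%), against 638.4 if no gene differed. All 5 libraries of one group lay above all 5 of the other for 46 genes that were higher (0.36%) and 84 that were lower (0.658%) in HFD → RC, and 8 of the 9 called genes were among these. The number of calls rested on pooling the spread and on single libraries. It was 1 when only the 2 groups were fitted (*cartpt*), 2 with robust dispersion (*stat3* and *smoc2*), ran from 1 to 9 as each of the 10 libraries was left out, was 0 without HFD NoDS libraries 20 and 21 (855 genes at an unadjusted p under 0.05), and reached 44 with DESeq2.

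**Figure D1:**
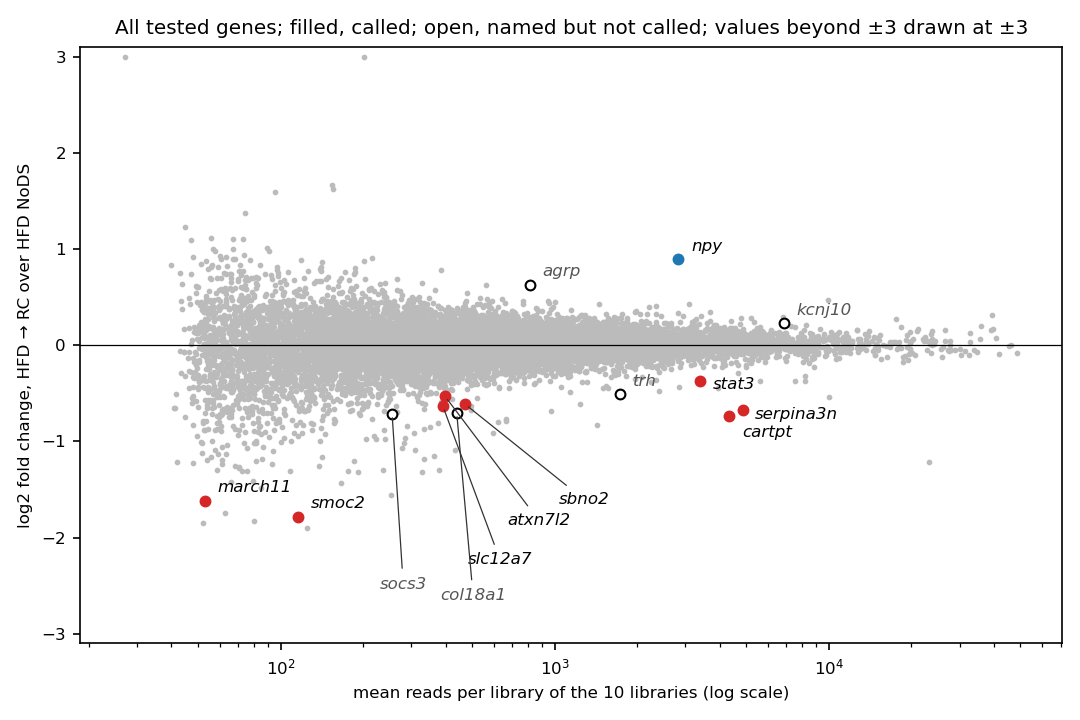
Log2 fold change of HFD → RC over HFD NoDS (y axis) for each of the 12768 tested genes against its mean reads per library over the 10 libraries (x axis, log scale). Filled points are the 9 called genes, with *npy* the only one above 0 (0.89), and open points are genes named in the text that were not called.

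*Npy* (ENSMUSG00000029819, chromosome 6 from 49772709 to 49779506, mm9), the peptide that strongly promotes eating, had 3058, 5214, 2669, 2832 and 4574 reads in the HFD → RC libraries and 1639, 1551, 2103, 2638 and 2006 in HFD NoDS. Every HFD → RC library was above every HFD NoDS library, although the lowest (2669) was only just above the highest (2638). The log2 fold change was 0.89 (SE 0.159, 1.86-fold, edgeR adjusted p = 0.0314), and an exact permutation test of the 2 means gave p = 0.00794, the smallest that 5 libraries against 5 can give. *Npy* averaged 4822 ± 581 reads (SD, n = 5) in RC NoDS and 1907 ± 322 (n = 6) in RC → HFD, so HFD → RC (3669 ± 1149, n = 5) lay between the mice always on RC and both groups on HFD. The spread in HFD → RC was the widest of the 4 groups, with libraries 14 and 17 well above the other 3. The call was lost without HFD → RC library 17 (adjusted p = 0.204) or HFD NoDS library 19 (0.158), with robust dispersion (0.162) and with only the 2 groups fitted (0.341).

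*Agrp* (ENSMUSG00000005705, chromosome 8 from 108090600 to 108092198), which blocks melanocortin receptors and is made by the same neurons, had 998, 1276, 623, 544 and 1476 reads in HFD → RC and 426, 678, 574, 902 and 616 in HFD NoDS. The same libraries 14 and 17 were highest, library 13 came next, and libraries 15 and 16 lay within the HFD NoDS range. Its log2 fold change of 0.63 (SE 0.197) did not pass the test (edgeR adjusted p = 0.481, exact permutation p = 0.127). It was called in 1 alternative, in which the summed fibroblast level was a covariate.

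*Cartpt* (ENSMUSG00000021647, chromosome 13 from 100668439 to 100670638), a peptide that restrains eating, had 2752, 3409, 2351, 4147 and 3575 reads in HFD → RC and 5221, 4823, 5332, 6161 and 5593 in HFD NoDS. A clear gap separated the groups. It fell by 0.73 on the log2 scale (SE 0.130, 1.66-fold lower, edgeR adjusted p = 0.0314, exact permutation p = 0.00794). The mean of 3247 ± 706 reads (n = 5) was near that of RC NoDS (2966 ± 563, n = 5), and RC → HFD stood between with 3923 ± 594 (n = 6). The call was lost without HFD → RC library 15 (adjusted p = 0.172) or HFD NoDS library 23 (0.190), and with robust dispersion (0.162). The 9 listed lateral hypothalamic markers, of which *cartpt* is one, had a summed level of 578.9 to 821.1 CPM (reads scaled to library size) in HFD → RC and 789.2 to 982.8 in HFD NoDS (exact permutation p = 0.0159, adjusted over 21 library measures 0.333). Of the 8 tested, 6 were lower, and none of the 9 was at 0 in any of the 10 libraries. *Cartpt* itself, with a mean of 3247 reads in HFD → RC and 5426 in HFD NoDS, is in this sum. The part of the other markers in the difference of the sum was not tested. Among arcuate markers, which also hold *cartpt*, 10 of 13 were lower, 6 of them at an unadjusted edgeR p under 0.05, and 2 were higher at that p. *Isl1*, one of them, had 406 to 612 reads against 616 to 909. Of 11 ventromedial markers, 9 were higher, 2 of them at that p. A shift in the region sampled was not tested. Without libraries 20 and 21, where *hcrt* was high, the *cartpt* call was lost (−0.79, adjusted p = 0.163).

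*Trh*, the thyrotropin-releasing hormone, had 1462, 1591, 1138, 1291 and 1673 reads in HFD → RC and 1741, 2613, 2258, 1863 and 1737 in HFD NoDS. The groups did not overlap (exact permutation p = 0.00794), but the log2 fold change of −0.51 (SE 0.161) was not called over all genes (edgeR adjusted p = 0.481). Both groups were well above RC NoDS, where *trh* ran from 464 to 683 reads. *Pomc*, the precursor of the satiety signal α-MSH, had 5417, 9866, 8488, 6700 and 5182 reads against 7815, 10670, 8235, 11836 and 7847, with groups that overlapped (log2 fold change −0.37, SE 0.177, exact permutation p = 0.119). Galanin (*gal*, −0.44, exact permutation p = 0.0714) and *bdnf* (0.44, exact permutation p = 0.0714) lay beyond an unadjusted edgeR p of 0.05 without being called. *Hcrt* (orexin) and *pmch* (melanin-concentrating hormone), made in the lateral hypothalamus, had exact permutation p-values of 0.389 and 0.619. The exact tests covered 9 genes and are unadjusted. Of 11 tested feeding peptides, 4 were higher and 7 lower, with a median log2 fold change of −0.24 (−0.40 without HFD NoDS library 19 and −0.07 without library 24) against 0.0047 over all genes tested, and *npy* and *cartpt* were the only 2 called.

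No receptor for these peptides or for leptin, ghrelin and insulin was called. Of 25 tested, 12 were higher and 13 lower, the median was −0.04, and 3 had an unadjusted p under 0.05, each lower. *Crhr1*, a receptor of corticotropin-releasing hormone, had 224, 335, 200, 300 and 272 reads in HFD → RC and 329, 452, 365, 451 and 441 in HFD NoDS, with 1 library of HFD → RC just inside the other group (log2 fold change −0.61, SE 0.159, edgeR adjusted p = 0.312). The leptin receptor *lepr* had 105, 97, 51, 157 and 119 reads against 100, 122, 214, 164 and 209, and the groups overlapped (−0.60, SE 0.276, edgeR adjusted p = 0.607). *Calcr*, the calcitonin receptor, on which amylin acts, was at −0.32 (SE 0.142, edgeR adjusted p = 0.595).

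*Stat3*, the acute-phase gene *serpina3n* and the transcriptional co-regulator *sbno2* were all lower after the return to RC, and *socs3* pointed the same way without being called. Their promoters, the 250 bases before and 50 after the RefSeq start (GRCm38.p6), were searched for the STAT motif TTCNNNGAA, which reads the same on both strands and was found in 8.30% of 32851 mouse promoters. It was in the windows of *socs3* (1 start) and *sbno2* (2 of 3 starts), and its letters were not in those of *stat3* and *serpina3n*. Of the other called genes with a RefSeq promoter, *atxn7l2* also held it, beginning 114 bases before the start, and the windows of *npy*, *cartpt*, *slc12a7* and *march11* did not. *Smoc2*, the remaining called gene, is not covered by this search. The *sbno2* window that also held the stricter TTCCNGGAA (1.15% of promoters) and the *socs3* window are shown as examples that held a motif. Capitals mark the motif, each sequence runs 5′ to 3′ on the strand of its gene (the minus strand for both), and a match is a description of letters, not of binding.
Sbno2, chr10:80101138-80101437, motif beginning 24 bases before the start: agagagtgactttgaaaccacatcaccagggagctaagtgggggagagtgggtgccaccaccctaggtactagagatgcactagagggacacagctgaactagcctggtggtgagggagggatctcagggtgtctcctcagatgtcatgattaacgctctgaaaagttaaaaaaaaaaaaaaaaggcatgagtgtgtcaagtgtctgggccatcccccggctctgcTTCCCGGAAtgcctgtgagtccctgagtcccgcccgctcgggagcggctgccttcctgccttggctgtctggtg
Socs3, chr11:117969317-117969616, motif beginning 154 bases before the start: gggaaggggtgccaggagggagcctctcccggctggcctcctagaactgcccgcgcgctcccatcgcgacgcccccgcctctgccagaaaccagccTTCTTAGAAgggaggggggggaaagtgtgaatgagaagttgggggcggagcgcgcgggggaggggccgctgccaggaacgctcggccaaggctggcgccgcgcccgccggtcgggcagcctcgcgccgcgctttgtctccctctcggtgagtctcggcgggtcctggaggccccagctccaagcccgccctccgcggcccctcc

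*Stat3* (ENSMUSG00000004040, chromosome 11 from 100746412 to 100800854, mm9) had 2661, 3131, 2738, 3213 and 3051 reads in HFD → RC and 3967, 3636, 3839, 4195 and 3571 in HFD NoDS. The highest HFD → RC library was below the lowest HFD NoDS library by more than the SD of either group. The change was small but tight, with a log2 fold change of −0.37 (SE 0.0734, 1.29-fold lower, edgeR adjusted p = 0.0896). HFD → RC (2959 ± 245 reads, n = 5) had the level of RC NoDS (3010 ± 237, n = 5) and of RC → HFD (3154 ± 242, n = 6), so HFD NoDS stood apart from all 3 other groups. Its position overlaps *stat5a* on the opposite strand, which was at −0.30 (SE 0.208, edgeR unadjusted p = 0.166) with 117 to 265 reads per library, and whether reads were counted by strand is not given in the sources used here.

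*Serpina3n* (ENSMUSG00000021091, chromosome 12 from 105644939 to 105652539), a protease inhibitor that reactive astrocytes release and 1 of a family of similar genes, had 2940, 4347, 2583, 4931 and 3790 reads in HFD → RC and 5817, 4510, 6582, 7239 and 5701 in HFD NoDS. It was the only called gene whose groups overlapped, through HFD → RC library 16 and HFD NoDS library 20. It fell by 0.68 on the log2 scale (SE 0.142, 1.60-fold lower, edgeR adjusted p = 0.108). *Sbno2* (ENSMUSG00000035673, chromosome 10 from 79520161 to 79565443), a transcriptional co-regulator induced by cytokines, had 304, 380, 318, 498 and 358 reads against 514, 655, 572, 595 and 516, and the groups did not overlap. It fell by 0.61 (SE 0.133, 1.53-fold lower, edgeR adjusted p = 0.127). *Socs3* (ENSMUSG00000053113, chromosome 11 from 117827393 to 117831361), chosen after its values were seen, had 148, 222, 147, 231 and 217 reads against 346, 260, 320, 381 and 280, again without overlap, at −0.71 (SE 0.204, edgeR adjusted p = 0.416). In *stat3*, *serpina3n*, *sbno2*, *socs3* and *cartpt* alike, libraries 13 and 15 were the lowest pair of HFD → RC and library 16 was the highest. The calls of *stat3* and *serpina3n* were lost without HFD → RC library 13, 15 or 17 or HFD NoDS library 19, 21 or 23 (adjusted p from 0.156 to 0.310 for *stat3* and from 0.181 to 0.368 for *serpina3n*), and that of *sbno2* without any library other than HFD → RC 16 and HFD NoDS 24 (0.180 to 0.368).

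Of 20 tested leptin and JAK-STAT genes, 8 were higher and 12 lower with a median of −0.04, and *stat3* was the only one called. Among the 8 signal transducers 5 were higher, including *jak2* with 657, 842, 831, 856 and 564 reads against 540, 476, 539, 768 and 715 (log2 fold change 0.31, SE 0.137, edgeR adjusted p = 0.585). Of the 7 inhibitors 6 were lower, with *socs3* the only one past an unadjusted p of 0.05. Of the 5 cytokine receptor chains 2 were higher.

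The reactive astrocyte and acute-phase list, by contrast, was mostly lower, with 19 of 23 tested genes below 0, a median of −0.27 (−0.36 to −0.17 over the settings tried), and 3 called. This list holds *stat3*, *serpina3n* and *sbno2*, so its count repeats them. A further 6 members had an unadjusted p under 0.05, all lower. They were the complement gene *c4b* (−0.45, SE 0.163), the transcription factor *cebpb* (−0.68, SE 0.255), the class I histocompatibility genes *h2-d1* (−0.36, SE 0.129) and *h2-k1* (−0.43, SE 0.160), *vim* (−0.27, SE 0.0949) and *ggta1* (−0.59, SE 0.2005), and edgeR's adjusted p was 0.515 or more for each. *Gfap*, the usual mark of reactive astrocytes, had 5357, 8518, 3402, 2987 and 4057 reads in HFD → RC and 6183, 8291, 4570, 8797 and 3807 in HFD NoDS, so the groups overlapped almost wholly (−0.37, SE 0.218). General astrocyte markers leaned the other way, with 8 of 12 higher (median 0.12), among them the glutamate transporter *slc1a3* (0.16, SE 0.0578, edgeR adjusted p = 0.530). None of the 12 was at 0 in any library, and the astrocyte sum was 5130 to 5816 CPM in HFD → RC and 4830 to 6049 in HFD NoDS.

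**Figure D2:**
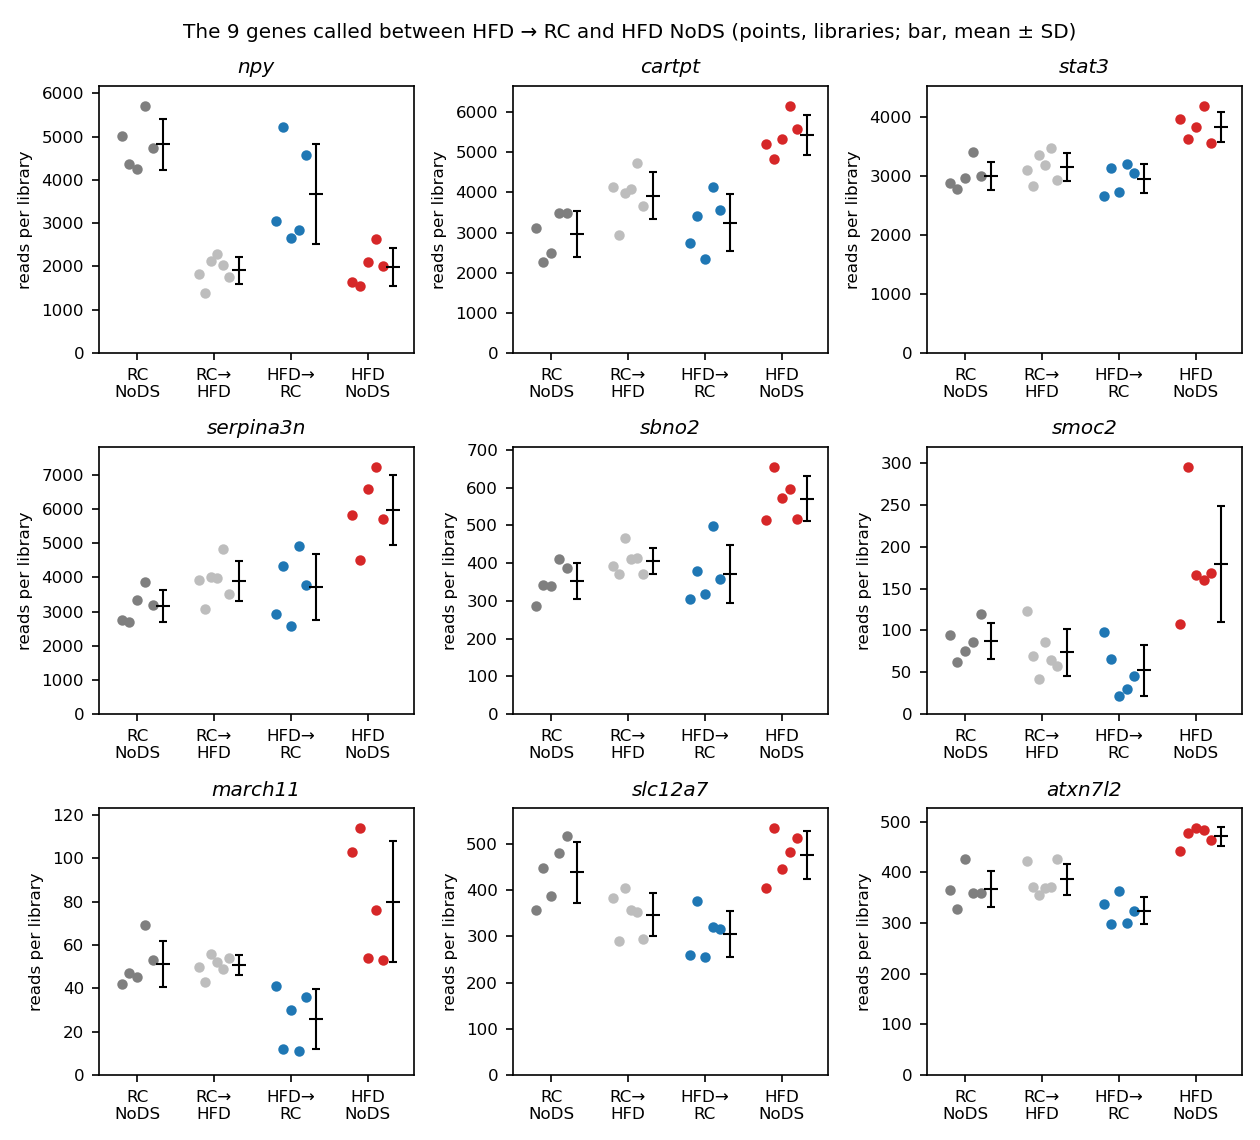
Reads per library (y axis) of the 9 called genes in the 4 groups (x axis), with each point a library and the bar the mean ± SD. HFD NoDS was the highest group in the 8 genes called as lower, of which *march11* passed the read filter only through HFD NoDS. *Npy* in HFD → RC (2669 to 5214 reads) had a mean between RC NoDS and the groups on HFD.

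*Smoc2* (ENSMUSG00000023886, chromosome 17 from 14416513 to 14541797), a secreted calcium-binding protein of the matrix, had the largest fold change of the called genes. It had 98, 66, 21, 30 and 46 reads in HFD → RC and 108, 296, 167, 160 and 169 in HFD NoDS. The groups did not overlap, but the lowest HFD NoDS library (19) was close to the highest HFD → RC library (13). It fell by 1.78 on the log2 scale (SE 0.357, 3.44-fold lower, edgeR adjusted p = 0.0896). RC NoDS had 62 to 120 reads and RC → HFD 42 to 123, so HFD NoDS was high and HFD → RC somewhat low against both. The call was lost without HFD → RC library 15, 16 or 17 or HFD NoDS library 20, 21 or 23 (adjusted p from 0.156 to 0.276).

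Of 31 tested genes of the basement membrane and matrix, 26 were lower and 5 higher, the median was −0.48 (−0.56 to −0.34 over the other settings tried, and −0.11 with the summed fibroblast level as a covariate), and 14 were lower at an unadjusted p under 0.05 against 2 that were higher (*sparc* and *lama1*). *Smoc2* was the only one called. Of 16 collagens 15 were lower. *Col4a5*, a chain of the basement membrane collagen, had 253, 308, 255, 263 and 212 reads in HFD → RC and 398, 459, 352, 462 and 382 in HFD NoDS, with no overlap (log2 fold change −0.66, SE 0.158, edgeR adjusted p = 0.230). *Col4a4* had 53, 26, 19, 91 and 27 reads against 115, 150, 102, 107 and 104, also with no overlap (−1.42, SE 0.369, edgeR adjusted p = 0.312). *Col18a1*, the source of endostatin, had 341, 448, 244, 376 and 260 reads against 565, 675, 489, 549 and 444, with library 14 of HFD → RC just inside the other group (−0.70, SE 0.159, edgeR adjusted p = 0.152). These 3 collagens and *col5a1* (−0.99, SE 0.256, edgeR adjusted p = 0.312) were chosen after their values were seen.

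Of 12 tested markers of meningeal fibroblasts, 11 were lower, the median was −0.89 (−1.23 to −0.53 over the other settings tried, and −0.04 with their own sum as a covariate), 6 (of which *col1a1*, *col1a2* and *col3a1* are also in the matrix list) had an unadjusted p under 0.05 and none was called. The 13 listed markers summed to 130.9 to 409.7 CPM in HFD → RC and 170.6 to 679.5 in HFD NoDS (exact permutation p = 0.127, two-sided). This sum was lowest in HFD → RC library 15 and highest in HFD NoDS library 20. It also holds *pdgfra*, which is a marker of oligodendrocyte precursors too, with 1085 to 1335 reads in HFD → RC and 1031 to 1344 in HFD NoDS. *Pdgfra* was the 1 tested member that was not lower (0.0065). *Lum* and *ogn* were each at 0 in 1 HFD → RC library, and no other marker was at 0 in any of the 10. *Aldh1a2*, an enzyme that makes retinoic acid in the meninges, had 237, 93, 31, 37 and 149 reads against 88, 339, 167, 384 and 394 (−1.32, SE 0.499, edgeR adjusted p = 0.530). *Islr* (−0.91, SE 0.341) and *col1a2* (−0.80, SE 0.291) were of the same kind. *Ptgds*, the prostaglandin D synthase of the meninges, chosen after its values were seen, had 24220, 16037, 4094, 5742 and 19785 reads in HFD → RC and 8808, 62534, 24197, 36530 and 30215 in HFD NoDS, and the groups overlapped widely (−1.22, SE 0.495, edgeR unadjusted p = 0.0206). With the summed fibroblast level as a covariate, an alternative added after seeing the data, *smoc2* was at −1.46 (edgeR adjusted p = 0.327). Under it *npy* and *cartpt* stayed called and the other 7 genes did not, with *stat3* at −0.38 (adjusted p = 0.190), *serpina3n* at −0.67 (0.300) and *sbno2* at −0.57 (0.396).

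**Figure D3:**
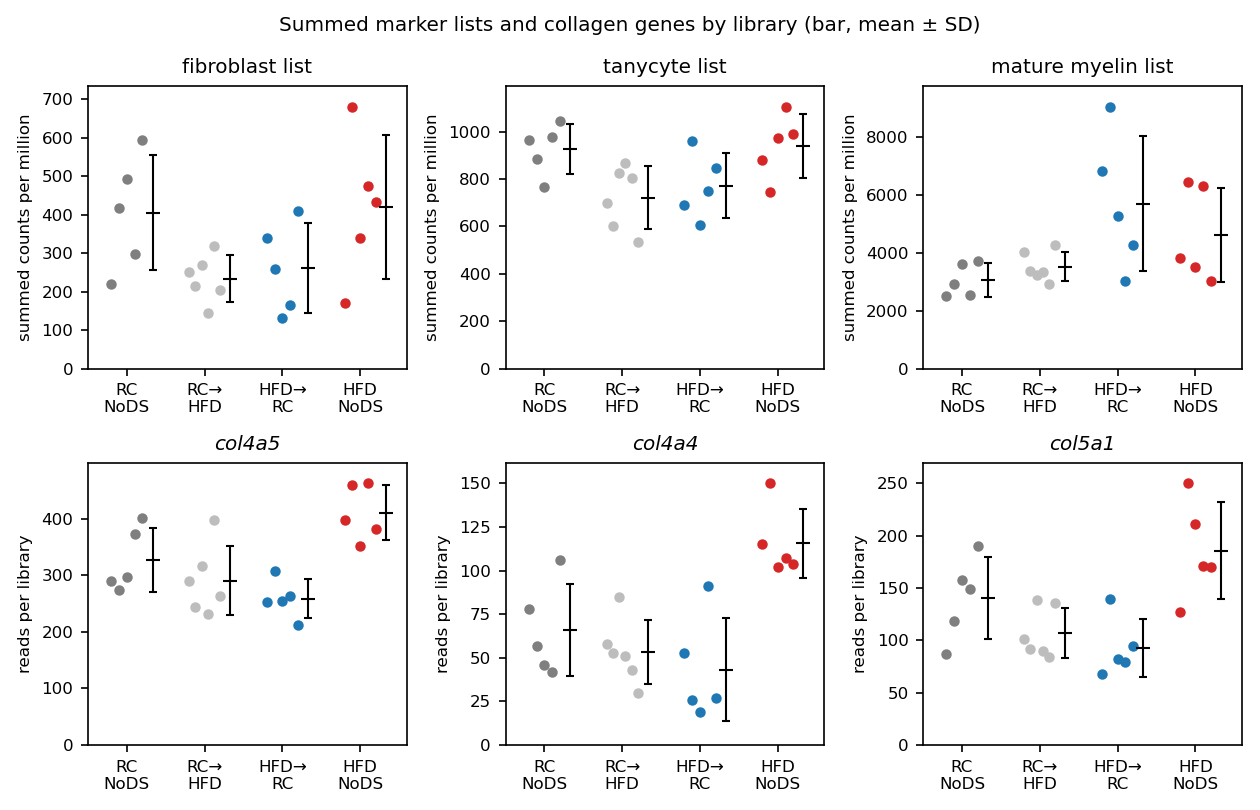
Summed CPM of the fibroblast, tanycyte and mature myelin lists (top) and reads of *col4a5*, *col4a4* and *col5a1* (bottom) by library in the 4 groups, with the bar at the mean ± SD. The summed lists overlapped between HFD → RC and HFD NoDS, while *col4a5* and *col4a4* did not.

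Tanycyte markers were lower in 13 of 16 cases, with a median of −0.26, 4 past an unadjusted p of 0.05 and none called. *Col23a1* had 3103, 4333, 2508, 3005 and 3663 reads against 4400, 3536, 4871, 5336 and 4663 (−0.45, SE 0.155, edgeR adjusted p = 0.519). *Crym*, which binds thyroid hormone, was at −0.40 (SE 0.183) and *gpr50* at −0.33 with an unadjusted p of 0.0412. The summed level was 606.9 to 960.7 CPM in HFD → RC and 742.9 to 1104 in HFD NoDS (exact permutation p = 0.0794), with no marker at 0. Microglial markers were near 0 (12 of 15 lower, median −0.07, none past an unadjusted p of 0.05).

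Of 26 interferon-stimulated genes 22 were lower, with a median of −0.20 (−0.28 to −0.08 over the other settings tried, and −0.03 with the summed fibroblast level as a covariate) and 3 past an unadjusted p of 0.05 (*ifi35*, and *h2-k1* and *h2-d1* again). *Ifi35* had 125, 168, 60, 97 and 116 reads in HFD → RC and 142, 231, 180, 272 and 172 in HFD NoDS (−0.81, SE 0.264, edgeR adjusted p = 0.486). The class II chain *cd74* had 348, 208, 80, 164 and 287 reads against 267, 595, 446, 730 and 647 (−1.30, SE 0.333, edgeR adjusted p = 0.312), and *h2-q7*, a gene with close relatives, had 48, 65, 17, 32 and 54 against 75, 134, 104, 111 and 115, without overlap (−1.31, SE 0.336, edgeR adjusted p = 0.312). Both were chosen after their values were seen. Of 17 genes of the NF-kB and toll-like receptor list, 13 were lower (median −0.13).

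The remaining 3 called genes belong to none of these lists. *Slc12a7* (ENSMUSG00000017756, chromosome 13 from 73870542 to 73954191), which carries potassium and chloride out of cells, had 260, 376, 255, 320 and 317 reads in HFD → RC and 404, 535, 446, 483 and 512 in HFD NoDS, without overlap (log2 fold change −0.63, SE 0.139, 1.55-fold lower, edgeR adjusted p = 0.132). Its neuronal relative *slc12a5* was at 0.04 (SE 0.0663). *March11* (ENSMUSG00000022269, chromosome 15 from 26238803 to 26339331), a ubiquitin ligase, was low in every library, with 41, 12, 30, 11 and 36 reads against 103, 114, 54, 76 and 53. Its log2 fold change was −1.62 (SE 0.348, 3.06-fold, edgeR adjusted p = 0.127). HFD NoDS (mean 80) carried *march11* past the filter of 50 reads, since HFD → RC averaged 26 reads, RC NoDS 51.2 and RC → HFD 50.7. Its direction here is therefore no result, and its call was lost with a filter of 5 reads (adjusted p = 0.239) or none (0.350). *Atxn7l2* (ENSMUSG00000048997, chromosome 3 from 108005140 to 108013852), a relative of ataxin-7, had 338, 298, 363, 300 and 324 reads against 443, 477, 488, 484 and 463. The SD of its libraries was 27.2 reads in HFD → RC and 18.3 in HFD NoDS, and it fell by 0.53 (SE 0.111, 1.44-fold lower, edgeR adjusted p = 0.108). All 3 calls were lost without any 1 of at least 8 of the 10 libraries, with an adjusted p of at most 0.368.

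No gene of lipid synthesis was called. Of 21 fatty acid synthesis genes 16 were higher, the median was 0.12, and 5 were higher at an unadjusted p under 0.05. *Scd2*, the main brain desaturase, had 38065, 40181, 41078, 35685 and 36343 reads in HFD → RC and 33845, 32600, 33706, 35385 and 32380 in HFD NoDS, and the groups did not overlap (0.20, SE 0.0513, edgeR adjusted p = 0.312). *Scd1* was at 0.24 (SE 0.0939) and *fads1* at 0.15 (SE 0.0617). Of 22 cholesterol synthesis genes 18 were higher with a median of 0.06, and 4 of them were higher at an unadjusted p under 0.05. *Insig1*, which holds cholesterol synthesis back, was at 0.26 (SE 0.0972) and *hsd17b7* at 0.50 (SE 0.209).

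Among insulin and IGF genes, 12 of 28 were higher (median −0.03, none called), but all 7 ligands and binding proteins were lower. *Igfbp6* had 99, 54, 27, 5 and 78 reads against 12, 346, 129, 289 and 211 (−1.90, SE 0.605, edgeR adjusted p = 0.481), with HFD NoDS library 19, the one with the lowest fibroblast sum of its group, lowest there too. With the summed fibroblast level as a covariate *igfbp6* was at −0.53. *Irs4*, an insulin receptor substrate of the hypothalamus, was at −0.28 (SE 0.107) and *grb14*, an inhibitor of the insulin receptor, at 0.36 (SE 0.139). Of 13 thyroid hormone genes 7 were higher (median 0.03), with *trh* and *crym* the only 2 past an unadjusted p of 0.05.

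Genes of neuronal signalling lay on both sides of 0, and none was called. *Kcnj10*, the inward rectifier potassium channel of astrocytes, had 7717, 7017, 7289, 7597 and 7435 reads in HFD → RC and 6407, 6033, 6338, 6338 and 6639 in HFD NoDS, without overlap (0.23, SE 0.0519, edgeR adjusted p = 0.152), and its p was the smallest of the genes not called. *Kcnt2*, a sodium-activated potassium channel, was at 0.73 (SE 0.305). Of 39 potassium channel genes 28 were higher (median 0.07, none called). Of 41 glutamate and GABA genes 28 were higher (median 0.10, none called). The metabotropic receptor *grm3* had 337, 283, 319, 349 and 352 reads against 174, 131, 250, 259 and 212 (0.69, SE 0.186, edgeR adjusted p = 0.390). *Slc17a6*, the glutamate transporter of excitatory neurons, was at 0.43 (SE 0.134). *Slc32a1*, the vesicular GABA transporter, ran the other way, with 2137, 2095, 2143, 2241 and 2241 reads against 2687, 2674, 2662, 2535 and 2623 (−0.27, SE 0.0756, edgeR adjusted p = 0.401). *Grm3* and *slc32a1* both separated the groups.

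Of 23 myelin genes 22 were above 0 and none was called, with a median of 0.27 that ran from 0.07 (without HFD → RC library 14) to 0.42 over the settings tried. *Ermn*, a myelin cytoskeleton gene, had 828, 1013, 583, 416 and 559 reads against 286, 426, 396, 746 and 366 (0.62, SE 0.241, edgeR adjusted p = 0.533). The mature myelin sum was 3035 to 9042 CPM in HFD → RC and 3017 to 6433 in HFD NoDS (exact permutation p = 0.437), so single libraries differed more than the groups. No marker of the list was at 0. Of 22 neurofilament and axonal genes 19 were higher (median 0.10, none called). *Nefh* had 1440, 1453, 1435, 1435 and 1566 reads against 1319, 1414, 1299, 1116 and 1083 (0.24, SE 0.0856, edgeR adjusted p = 0.530), *snca* was at 0.30 (SE 0.114), and *spp1*, which meningeal cells also make, was at −0.98 (SE 0.420).

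Immediate early genes, induced by neuronal activity, were mixed after the 3 hours of wakefulness that all mice had. Of 27 tested, 11 were higher and 16 lower (median −0.11, none called). *Gadd45b* had 86, 33, 39, 70 and 51 reads against 85, 128, 115, 94 and 162 (−1.06, SE 0.315, edgeR adjusted p = 0.450), and *nr4a3* was at −0.49 (SE 0.194). *Bdnf* had 341, 421, 472, 352 and 328 reads against 302, 347, 344, 215 and 209, and the groups overlapped. Among the pituitary and blood genes 8 of 10 were higher (median 0.22, and −0.30 to 0.74 over the settings tried, none called), with *gh* and *prl* past an unadjusted p of 0.05 and nearly all of their HFD → RC reads in library 13. *Gh* passed the read filter only through HFD → RC, where it was high (mean 402 reads, against 38.0 in RC NoDS, 86.5 in RC → HFD and 0.60 in HFD NoDS), so its direction there is no result. The pituitary sum was 3.97 to 180 CPM in HFD → RC and 3.24 to 66.2 in HFD NoDS, *prl* was at 0 in 4 HFD → RC libraries and 1 HFD NoDS library, and *gh* in 1 and 2. Without library 13 the number of called genes was 4, and *npy* and *cartpt* were among them.

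**Figure D4:**
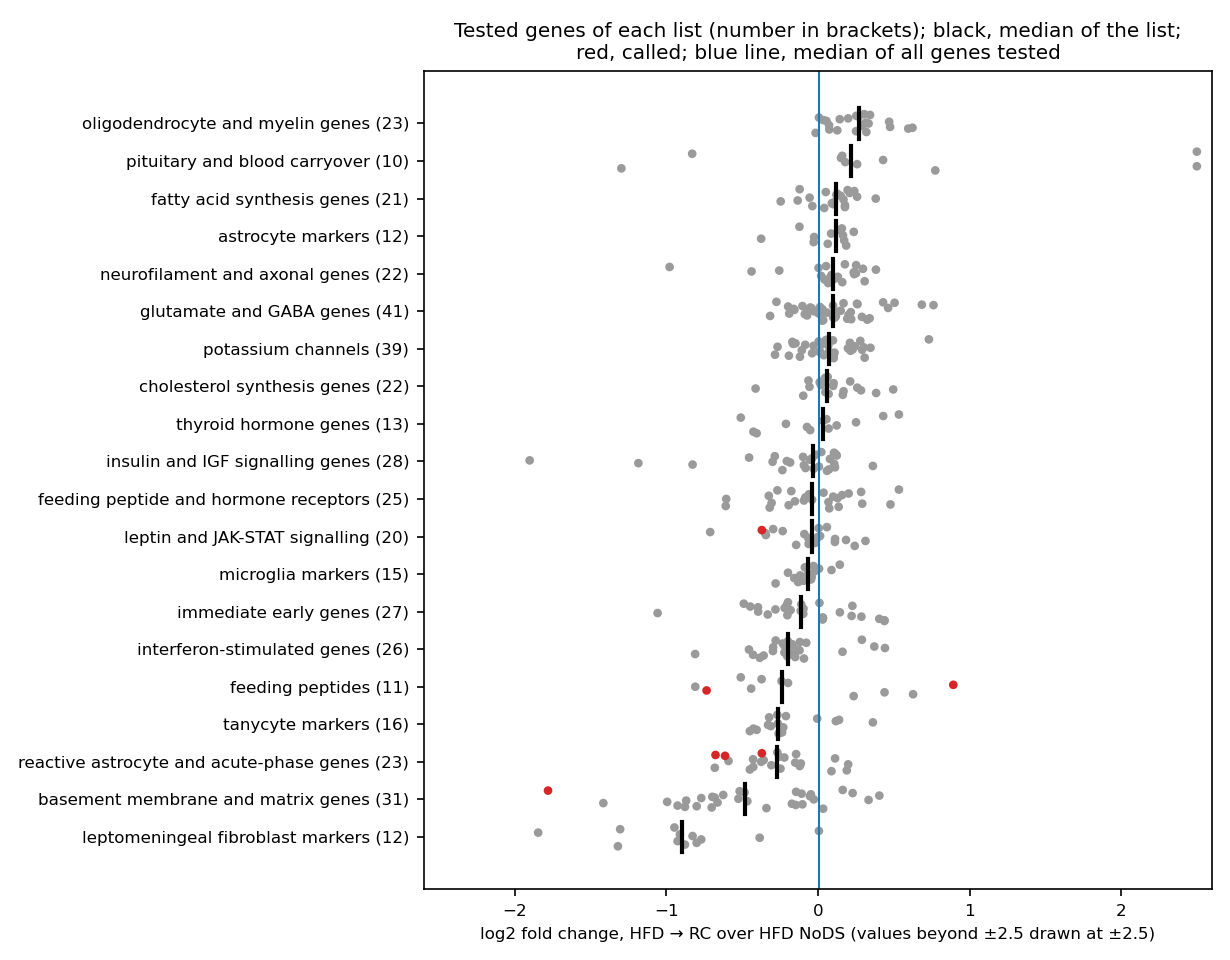
Log2 fold change of HFD → RC over HFD NoDS (x axis) of each tested gene in 20 lists (y axis, number of tested genes in brackets), with black bars at the list medians, red points for called genes and a blue line at the median of all genes tested (0.0047); *gh* and *prl* are drawn at its edge. Fibroblast (−0.89) and matrix (−0.48) lists lay lowest and myelin genes (0.27) highest.

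The effect of the last week's diet was next compared with that in mice without earlier HFD, where RC NoDS was set against RC → HFD. The 2 differences share no library, and each is RC minus HFD. The test of their difference is the same contrast as both switched groups against both groups that kept their diet. It called 4 genes, 0.0313% of those tested, 2 lower and 2 higher (all with an edgeR adjusted p of 0.145), and 1129 genes had an unadjusted p under 0.05. *Slc12a7* was at −0.63 after earlier HFD and 0.31 after earlier RC, a difference of −0.95 (SE 0.192). *Col18a1* was at −0.70 and 0.38, a difference of −1.08 (SE 0.2196). It overlaps *slc19a1* on the opposite strand, which had as many reads (mean 403 in HFD → RC and 401 in HFD NoDS) and was at 0.01 (SE 0.141) and 0.30 (SE 0.135), and reads shared between them cannot be told apart without the strand setting. *Plcxd2* was at 0.34 and −0.32, a difference of 0.66 (SE 0.137), and *tppp*, which bundles microtubules in oligodendrocytes, was at 0.22 and −0.30, a difference of 0.51 (SE 0.106). In each of the 4, the means of the switched groups lay together on 1 side and those of the groups that kept their diet on the other.

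In reads, *plcxd2* had 2162, 1862, 2449, 2405 and 2050 in HFD → RC and 1894, 1534, 1912, 1543 and 1785 in HFD NoDS, against 1429, 2018, 1963, 1521 and 1580 in RC NoDS. *Tppp* had 7966, 7336, 8270, 7122 and 6710 in HFD → RC and 6843, 6839, 5874, 6076 and 6740 in HFD NoDS. Neither gene separated all HFD → RC from all HFD NoDS libraries. *Npy* was at 0.89 for HFD → RC over HFD NoDS and 1.31 for RC NoDS over RC → HFD (a difference of −0.42, edgeR unadjusted p = 0.0644), and *cartpt* was at −0.73 and −0.43 (a difference of −0.31, unadjusted p = 0.0996). *Stat3* was at −0.37 and −0.09, a difference of −0.28 (unadjusted p = 0.0106, edgeR adjusted p = 0.366), and *smoc2* at −1.78 and 0.22, a difference of −2.0 (edgeR adjusted p = 0.176). The count of calls depended on the processing, with 0 calls after median-of-ratios scaling (1128 genes at an unadjusted p under 0.05), 0 with the summed fibroblast level as a covariate (915 genes) and between 0 and 124 calls as each of the 10 libraries was left out. The fibroblast list, whose summed level was as low in RC → HFD (143.8 to 318.6 CPM) as in HFD → RC, had a median of −0.89 after earlier HFD and 0.97 after earlier RC, and the matrix list one of −0.48 and 0.20.

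**Figure D5:**
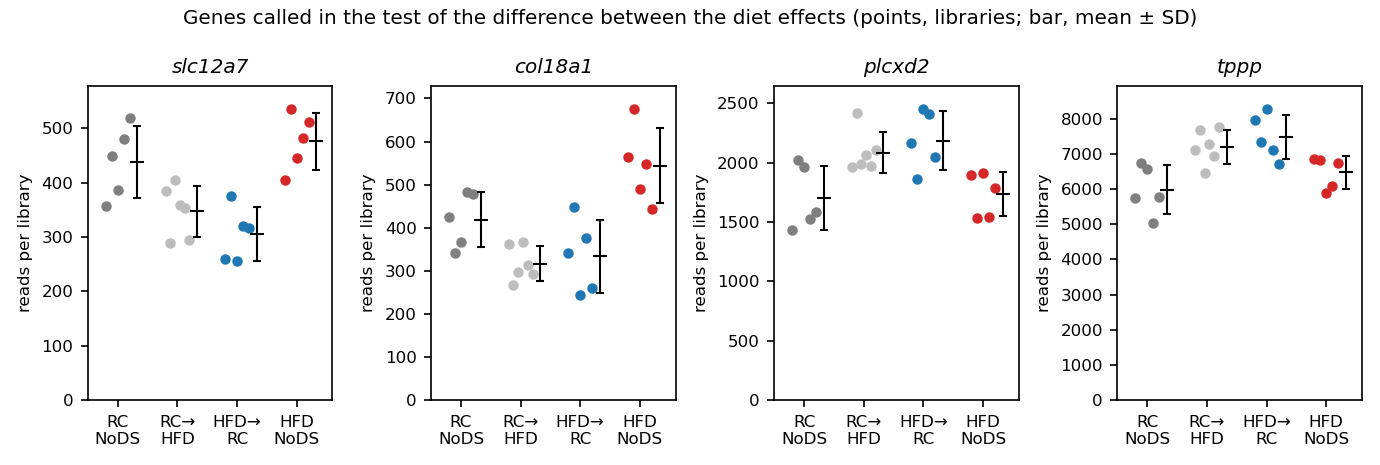
Reads per library (y axis) of the 4 genes called in the test of the difference between the diet effects, by group (x axis), with the bar at the mean ± SD. The means of HFD → RC and RC → HFD lay together below RC NoDS and HFD NoDS for *slc12a7* and *col18a1* and above them for *plcxd2* and *tppp*.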

How the data were processed

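RNA-seq was analysed for 21 libraries of mouse VH, each from the pooled punches of 2 mice, in 4 diet groups taken from the labels. Per the study's methods, polyadenylated RNA was sequenced (TruSeq Stranded mRNA, 100 bp single-end) and the authors removed ribosomal and mitochondrial reads and re-sampled the libraries to 1 depth with PORT. The submitters' processing notes name STAR 2.5.1b, Picard 2.7.1 and mm9. The values deposited are whole-number counts of reads per gene, 16380781 to 16390598 per library, and the strand setting of the counting is not given in the sources used here. Re-sampling matches the total reads only, and the share of low genes at 0 still differed between libraries.

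The test was edgeR's quasi-likelihood F-test (version 4.0.16, with TMM factors 0.982 to 1.02, 4 group means over all 21 libraries and R 4.3.3) on the counts of the 12768 genes averaging at least 50 reads, with a Benjamini-Hochberg adjusted p under 0.15 as the call. Normalised values of 9 peptides and 21 library measures had exact two-sided permutation tests (scipy 1.17.1). The smallest p that 5 libraries against 5 allow is 0.00794. Genes were named if called in either test, if they were feeding peptides or followed up by the study, or, in each list, as its called members or else up to 3 members with the smallest unadjusted p under 0.05, and further genes were chosen after their values were seen. The members and lists were chosen with earlier results of these data known. On simulated data for the HFD → RC against HFD NoDS comparison over 12768 genes, 90 of 100 genes changed by 1 log2 unit and 99 of 100 changed by 2 were recovered, with 39 false calls. Each gene was drawn independently with its fitted spread. Differences that many genes of a library share were not simulated, so these rates need not hold for the real libraries. Most called genes here changed by less than 1. In within-group pairs of libraries, the squared differences in counts were 11.5 to 42.0 times those of sampling noise (chi-squared per degree of freedom). Pairs that held HFD NoDS library 20 ran from 34.0 to 42.0, and the other HFD NoDS pairs from 11.5 to 22.6. Gene positions are GENCODE vM1 (mm9) and promoters RefSeq (GRCm38.p6). The 34 settings tried included DESeq2 1.42.0, limma-voom 3.58.1, other filters and scalings, covariates, and leaving out each library. Some results are not reported here.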

Additional observations from a re-analysis of the deposited data

Results flagged for a closer look

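Values of the named genes were checked within each group for a library far from the others (106 groups, of which chance alone would set apart about 5%), and 7 stood out. In HFD → RC, library 14 was lowest in *slc1a3* (11864 reads, the others 13486 to 13925), library 17 was highest in *nefh* (1566, the others 1435 to 1453), and library 13 was highest in *gh* (2003, the others 0 to 4) and *prl* (258, the others 0). In HFD NoDS, library 19 was highest in *fads1* (4532, the others 3933 to 4090), library 23 highest in *h2-d1* (3604, the others 2334 to 2529) and library 21 highest in *prl* (10, the others 0 or 1).

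The RC minus HFD difference after earlier HFD and after earlier RC differed, by the edgeR test of that difference, in *slc12a7* (−0.945), *col18a1* (−1.08), *plcxd2* (0.659) and *tppp* (0.512).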

How the results depend on the processing

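The 9 calls between HFD → RC and HFD NoDS became 44 with DESeq2, 4 with a filter of 5 reads, 5 without a filter, 1 with only these groups fitted, 2 with robust dispersion, 15 with the share of zero counts as a covariate, 4 with the fibroblast sum as a covariate (added after seeing the data) and 0 without HFD NoDS libraries 20 and 21 (edgeR, 855 genes at an unadjusted p under 0.05). Leaving out 1 library at a time gave 1 to 13. The 4 calls of the difference test became 116 with DESeq2, 15 with limma-voom, 2 with library-size scaling, 0 with median-of-ratios scaling (edgeR, 1128 genes at an unadjusted p under 0.05), 0 with a filter of 5 reads (1296), 33 with the zero share, 33 without libraries 20 and 21, 0 with the fibroblast sum (915), 224 with a length and GC correction, and 0 to 124 leaving out 1 library. The cause was not tested. Of the peptides tested exactly, 3 had p under 0.05, and 3 to 5 when 1 library was left out. Of the library measures, 1 had, and 1 to 4 likewise. None of the 9 called genes changed direction in any of the 34 settings, but *hcrt* was at 0.69 without libraries 20 and 21, *pmch* ran from −0.45 to 0.0021 as 1 library was left out (above 0 without HFD NoDS library 24), and *prl* was at −0.020 with limma-voom and ran from −4.45 (without HFD → RC library 13) to 5.89 (without HFD NoDS library 21). No paired analysis was possible because the groups share no replicate number. Total reads were nearly equal, but the share of low genes at 0 ran from 5.68% to 32.9% over the 10 libraries.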
